A study of Drosophila melanogaster with 18 samples.

Results

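The comparison described here sets larvae in the first generation (G1) of DNMT3L expression, Tub-3L G1, against larvae without the driver in the fifth generation, UAS-3L G5. It comprises 4 of the 18 arrays of the series, 2 per group, and all 16322 probe sets. A second set of larvae without the driver, UAS-3L G1, was used to ask which of the differences did not depend on the choice of control. DNMT3L is a mammalian relative of the de novo DNA methyltransferases that has no catalytic activity of its own, binds a histone tail and assists its active relatives, and flies have no member of that family. In the GAL4 and UAS system a yeast activator made by a driver line switches on a transgene placed behind its binding sites. The question was how the transcriptome of larvae stood at the start of DNMT3L expression, before later generations of the same stock.

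All arrays were hybridised with RNA of pooled Drosophila melanogaster larvae of the third instar, and the labels call the 2 arrays of each group biological replicates. Tub-3L G1 larvae carried UAS-DNMT3L, a FLAG-tagged cDNA behind an hsp70 promoter with GAL4 sites and a mini-white marker, together with Tubulin-GAL4, a driver active throughout the body. UAS-3L G5 and UAS-3L G1 larvae carried the same transgene without the driver. By the methods the Tub-3L stock was made homozygous and selfed in every generation. Of the other groups, 2 served as references for single genes and for counts of the shared calls: UAS-3L* G20*, whose driver had been crossed out of a late Tub-3L stock, and w1118, the strain that had been injected. The title of the UAS-3L* G20* samples gives the name of the driver line and their description gives the fifth generation, so the genotype and generation of this group are uncertain. Wherever arrays or groups without the driver are counted below, this group is included with that uncertainty. By the methods a single transgene line was used with this driver, and the transgene and the driver lay on different chromosomes. DNMT3L itself, GAL4 and the rest of the driver chromosome cannot be told apart in this design, because no group had the driver alone. Tub-3L G1 and UAS-3L G5 also differed in generation, while UAS-3L G1 matched Tub-3L G1 in generation. The level of the transgene was not analysed here.

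The values are log2 signals after robust multichip averaging (RMA), in which 1 unit is a 2-fold difference, and the number of arrays limits their precision. The median signal of the 18 arrays ranged from 6.17 to 6.39, and 6 of 6 named salivary glue genes, which mark larvae late in the third instar, gave a summed signal of 14.29 to 14.34 in Tub-3L G1, 14.39 to 14.47 in UAS-3L G5 and 14.26 to 14.35 in UAS-3L G1. All 5 named genes of the male accessory gland, an adult organ, lay below the lower quartile of the signal on all 6 arrays. None of the 6 listed larval fat body genes was among the named probe sets. The duplicates of a group differed by a median of 0.158 in Tub-3L G1, 0.139 in UAS-3L G5 and 0.157 in UAS-3L G1 (absolute log2 difference over all probe sets). Arrays of Tub-3L G1 and UAS-3L G5 differed by medians of 0.246 to 0.258, arrays of Tub-3L G1 and UAS-3L G1 by 0.257 to 0.269, and arrays of the 2 control groups by 0.232 to 0.235. The controls thus stood nearly as far from each other as from Tub-3L G1.

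A probe set was called when its adjusted p was under 0.05 and its signal differed at least 2-fold. Tub-3L G1 had 212 probe sets called higher than UAS-3L G5 (1.30% of those tested) and 311 called lower (1.91%). Without the fold threshold, 1474 were higher (9.03%) and 1637 lower (10.0%), so most of the probe sets past the test differed by less than 2-fold. The median log2 difference of the calls was 1.30 for those higher and -1.38 for those lower. Over all probe sets the median log2 difference was 0.0031.

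Against UAS-3L G1, the control of the same generation, 200 probe sets were called higher (1.23%) and 280 lower (1.72%). Without the fold threshold, 1871 were higher (11.5%) and 1432 lower (8.77%). Called the same way against both controls were 95 higher (0.582% of all probe sets) and 131 lower (0.803%), and 0 were called in opposite directions. These 226 make up 43.2% of the calls against UAS-3L G5 and 47.1% of those against UAS-3L G1. The comparisons share the Tub-3L G1 arrays, so the overlap is given as a count and was not tested. UAS-3L G5 and UAS-3L G1 themselves differed in 280 probe sets (1.72%), 164 of them higher in UAS-3L G5 and 116 lower. In all 226 shared calls both Tub-3L G1 arrays lay beyond all 4 control arrays. Over all probe sets the share was 33.9%, but the calls were made on the same arrays, so nothing is read from this. In 87 of the 95 and 111 of the 131 they also lay beyond all 8 arrays without the driver (21.0% over all probe sets), and 4 of the 8 were used to make the calls, so this too is a description only.

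Of the 95, 66 were also called higher than w1118 and 87 higher than UAS-3L* G20*. Of the 131, 86 were also called lower than w1118 and 122 lower than UAS-3L* G20*. Over all probe sets Tub-3L G1 was called either way in 7.32% against w1118 and in 3.31% against UAS-3L* G20*, and the shares are not read against each other, since the same Tub-3L G1 arrays made the calls. Called against all 4 groups without the driver were 61 higher and 79 lower, while 2 of the 95 and 2 of the 131 were called the other way against w1118. Of the 226, 30 carry a gene symbol, 17 of them higher and 13 lower, and the other 196 have no name here.

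**Figure D1:**
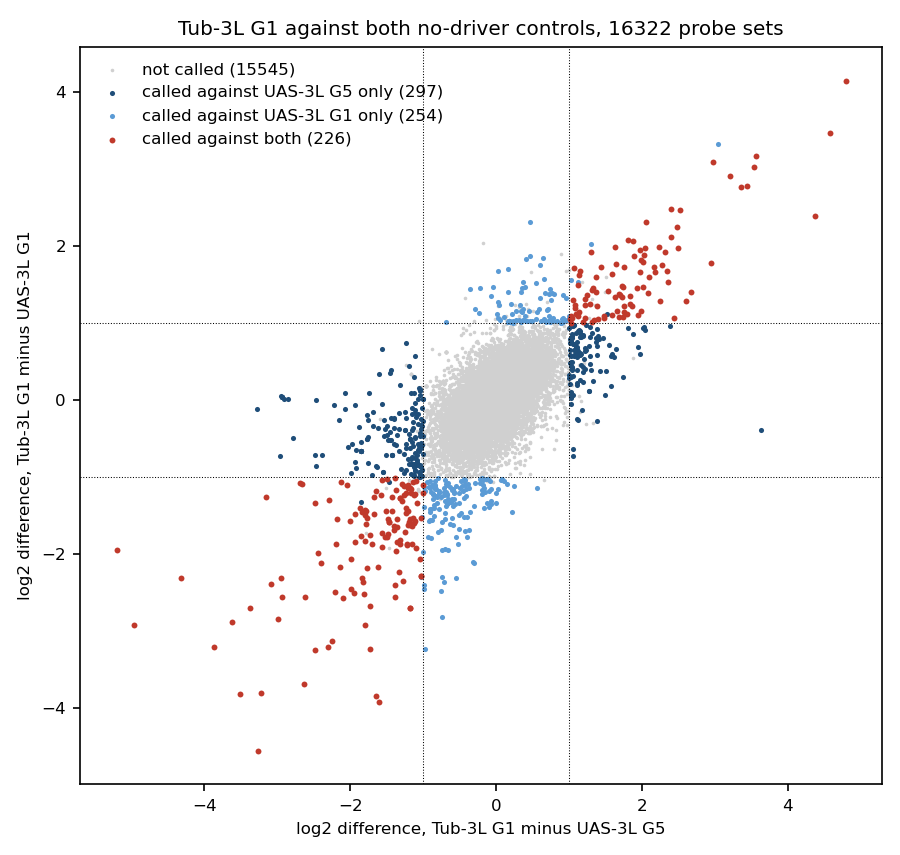
Log2 difference of each of the 16322 probe sets between Tub-3L G1 and UAS-3L G5 (horizontal axis) and between Tub-3L G1 and UAS-3L G1 (vertical axis), with dotted lines at 2-fold. The 226 probe sets called against both controls lie in the lower left and upper right corners, and the 297 called against UAS-3L G5 only include 41 on opposite sides of zero on the 2 axes.

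Of the 17 named genes higher in Tub-3L G1 than in both controls, 4 encode enzymes that digest starch and sugars. The fly has a pair of nearly identical amylases, which cut starch, and a cluster of maltases, which split the resulting sugars in the gut. Amy-d, 1 of the amylases, had signals of 8.64 and 9.22 in Tub-3L G1, against 5.55 and 5.42 in UAS-3L G5 and 5.77 and 6.53 in UAS-3L G1. It was 10.9-fold higher than UAS-3L G5 (log2 difference 3.44, SE 0.23, adjusted p = 1.36e-06) and 6.85-fold higher than UAS-3L G1 (2.78, adjusted p = 6.80e-06). Its Tub-3L G1 arrays lay above all 8 arrays without the driver. Amy-p, the other amylase, had signals of 9.85 and 9.81 in Tub-3L G1, against 8.79 and 8.59 in UAS-3L G5 and 7.95 and 8.45 in UAS-3L G1. It was 2.20-fold higher than UAS-3L G5 (log2 difference 1.14, SE 0.13, adjusted p = 1.03e-04) and 3.09-fold higher than UAS-3L G1 (1.63, adjusted p = 5.46e-06). The probe sets may share signal, as the 2 genes are close copies, and RefSeq places them 2 protein-coding genes apart.

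The maltase Mal-A4 had signals of 8.26 and 8.15 in Tub-3L G1, against 6.97 and 6.85 in UAS-3L G5 and 5.93 and 6.64 in UAS-3L G1. It was 2.46-fold higher than UAS-3L G5 (log2 difference 1.30, SE 0.17, adjusted p = 2.93e-04) and 3.79-fold higher than UAS-3L G1 (1.92, adjusted p = 1.28e-05). Mal-A2, which lies close by in the maltase cluster, had signals of 6.19 and 6.16 in Tub-3L G1, against 4.62 and 5.04 in UAS-3L G5 and 4.92 and 5.35 in UAS-3L G1. It was 2.53-fold higher than UAS-3L G5 (log2 difference 1.34, SE 0.15, adjusted p = 9.61e-05) and 2.06-fold higher than UAS-3L G1 (1.04, adjusted p = 6.51e-04), and the difference from UAS-3L G1 came to 0.82 without the first UAS-3L G1 array and to 0.94 with arrays centred or quantile normalised, all under 2-fold. In both maltases the Tub-3L G1 arrays were the highest of the 10 arrays compared. Of 11 named maltases and amylases, 5 were higher than UAS-3L G5 at an adjusted p under 0.05 with no fold threshold (45.5%, against 9.03% of all probe sets) and 2 were lower (18.2%, against 10.0%). Their median log2 difference was 0.57, against 0.0031 over all probe sets. Mal-A3 was the other member to pass upward (0.74), Mal-A5 (-0.53) and Mal-A6 (-0.35) passed downward, 1 of them without the first array of Tub-3L G1 or of UAS-3L G5. Against UAS-3L G1, 6 passed upward (54.5%, against 11.5% of all probe sets) and 1 downward (9.09%, against 8.77%), with a median of 0.68.

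The gene tobi, an alpha-glucosidase that is a target of insulin signalling, had signals of 7.45 and 7.54 in Tub-3L G1, against 5.94 and 5.56 in UAS-3L G5 and 6.13 and 5.93 in UAS-3L G1. It was 3.35-fold higher than UAS-3L G5 (log2 difference 1.74, SE 0.15, adjusted p = 1.15e-05) and 2.76-fold higher than UAS-3L G1 (1.47, adjusted p = 3.94e-05). In w1118 its signals were 7.61 and 7.54, against which Tub-3L G1 had a log2 difference of -0.08, and the arrays of these 2 groups overlapped.

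Genes of chitin turnover, defence and detoxification were also among them. Cht4, a chitinase, which breaks down chitin, had signals of 9.998 and 9.85 in Tub-3L G1, against 7.98 and 7.81 in UAS-3L G5 and 7.84 and 8.24 in UAS-3L G1. It was 4.07-fold higher than UAS-3L G5 (log2 difference 2.02, SE 0.15, adjusted p = 2.62e-06) and 3.69-fold higher than UAS-3L G1 (1.89, adjusted p = 3.86e-06). Of the 7 named chitinases and chitinase-like growth factors, Cht4 alone was higher than UAS-3L G5 (14.3%, against 9.03% of all probe sets), and 3 were lower (42.9%, against 10.0%). Against UAS-3L G1, 1 was higher (14.3%, against 11.5%) and 2 were lower (28.6%, against 8.77%). Idgf1, Idgf2 and Idgf4, chitinase-like growth factors without that activity, were lower than UAS-3L G5 by 0.62, 0.43 and 0.44 on the log2 scale. Idgf4 did not pass without the first array of Tub-3L G1 or of UAS-3L G5 (adjusted p = 0.0509 and 0.0582). Idgf1 differed from UAS-3L G1 by -0.17 with an adjusted p of 0.165.

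DptB encodes Diptericin B, an antimicrobial peptide induced through the Imd pathway. Its signals were 9.57 and 9.60 in Tub-3L G1, against 7.50 and 7.48 in UAS-3L G5 and 7.90 and 8.06 in UAS-3L G1. It was 4.27-fold higher than UAS-3L G5 (log2 difference 2.09, SE 0.10, adjusted p = 1.67e-07) and 3.03-fold higher than UAS-3L G1 (1.60, adjusted p = 9.96e-07). Both arrays of Tub-3L G1 lay above all other arrays shown. Of 4 named immune-induced peptides, 2 were higher than UAS-3L G5 (against 9.03% of all probe sets) and 0 lower, with a median of 0.44. BomS2, a bomanin peptide of the Toll pathway, was the second, with signals of 7.04 and 7.12 in Tub-3L G1, against 6.66 and 6.73 in UAS-3L G5 and 5.56 and 5.66 in UAS-3L G1. Its difference was 0.39 against UAS-3L G5 and 1.47 against UAS-3L G1, and without 1 of 2 arrays (the second of Tub-3L G1 or the first of UAS-3L G5) the test against UAS-3L G5 was not passed (adjusted p = 0.0804 and 0.0879). The controls differed from each other in BomS2 by 1.08 (UAS-3L G5 minus UAS-3L G1, as for all differences between controls here).

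The cytochrome P450 gene Cyp4ac3 had signals of 8.24 and 8.48 in Tub-3L G1, against 6.53 and 6.87 in UAS-3L G5 and 7.38 and 7.02 in UAS-3L G1. It was 3.16-fold higher than UAS-3L G5 (log2 difference 1.66, SE 0.14, adjusted p = 1.02e-05) and 2.23-fold higher than UAS-3L G1 (1.16, adjusted p = 1.49e-04), and the difference from UAS-3L G1 was 0.98, under 2-fold, without the second UAS-3L G1 array. Gr94a, a gustatory receptor, was dim throughout, with signals of 4.61 and 4.92 in Tub-3L G1, against 3.38 and 3.58 in UAS-3L G5 and 3.41 and 3.64 in UAS-3L G1. It was 2.44-fold higher than UAS-3L G5 and 2.37-fold higher than UAS-3L G1. Of 164 named chemoreceptor genes, Gr94a passed upward against UAS-3L G5 and 3 passed downward, below the shares over all probe sets. Without single arrays 1 or 2 passed upward, the 2 without the first UAS-3L G5 array, while 1 passed downward without either Tub-3L G1 array, 6 without the first UAS-3L G5 array and 5 without the second. The alpha-tubulin gene alphaTub85E had signals of 7.26 and 7.36 in Tub-3L G1, against 6.19 and 6.34 in UAS-3L G5 and 6.05 and 5.97 in UAS-3L G1, and of 7.14 and 6.997 in w1118, close to those in Tub-3L G1. It was 2.07-fold higher than UAS-3L G5, and without the first array of that control the log2 difference was 0.97.

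Of the other 7 higher genes, all are known here by a CG number only. CG43175 had signals of 8.63 and 8.74 in Tub-3L G1, against 5.11 and 5.54 in UAS-3L G5 and 5.45 and 6.39 in UAS-3L G1, and the w1118 arrays, at 7.27 and 7.45, lay between. CG43351 had signals of 8.18 on both arrays in Tub-3L G1, against 6.25 and 6.35 in UAS-3L G5 and 5.81 and 6.42 in UAS-3L G1. RefSeq places it 10 protein-coding genes from DptB. CG43153, CG43133, CG17362, CG43315 and CG43064 were 2.12-fold to 4.03-fold higher than UAS-3L G5 and 2.30-fold to 3.41-fold higher than UAS-3L G1.

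**Figure D2:**
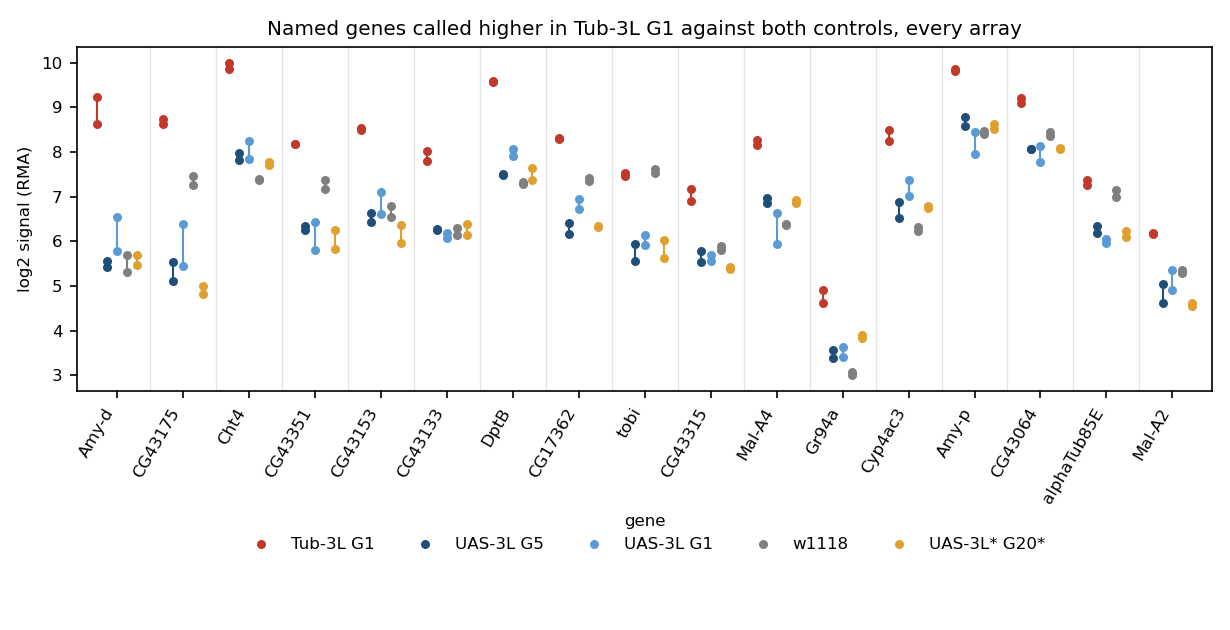
Log2 signal on every array for the 17 named genes called higher in Tub-3L G1 (red) than in both UAS-3L G5 (dark blue) and UAS-3L G1 (light blue), with w1118 (grey) and UAS-3L* G20* (yellow). Points are single arrays and lines join the 2 arrays of a group. In every gene both red points lie above all 4 blue points, and in tobi the grey points lie at the red ones.

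Of the 13 named genes lower in Tub-3L G1 than in both controls, 6 encode heat shock proteins or detoxifying transferases. Heat shock proteins are chaperones that refold or hold damaged proteins, and glutathione S-transferases (GST) attach glutathione to reactive compounds. Hsp70Ab, a copy of the inducible Hsp70 genes, had signals of 9.43 and 9.25 in Tub-3L G1, against 11.62 and 11.67 in UAS-3L G5 and 12.56 and 12.52 in UAS-3L G1. It was 4.93-fold lower than UAS-3L G5 (log2 difference -2.30, SE 0.10, adjusted p = 4.60e-08) and 9.21-fold lower than UAS-3L G1 (-3.20, adjusted p = 3.38e-09). The controls differed from each other as well (log2 difference -0.90), but all 4 lay over 2 units above Tub-3L G1. Copies of Hsp70 are almost identical, so that other copies may add to this probe set. The probe set of Hsp70Aa, another copy, was dim and uneven, with 2.43 and 2.99 in Tub-3L G1, against 2.64 and 4.21 in UAS-3L G5 and 5.60 and 4.55 in UAS-3L G1. It passed the test against UAS-3L G1 (-2.37, adjusted p = 0.00345) and not against UAS-3L G5 (-0.72, adjusted p = 0.303).

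The small heat shock protein gene Hsp26 had signals of 10.68 and 10.48 in Tub-3L G1, against 12.37 on both arrays in UAS-3L G5 and 12.31 and 12.06 in UAS-3L G1. It was 3.45-fold lower than UAS-3L G5 (log2 difference -1.79, SE 0.10, adjusted p = 3.05e-07) and 3.05-fold lower than UAS-3L G1 (-1.61, adjusted p = 6.57e-07). The w1118 arrays, at 11.43 and 11.30, lay between Tub-3L G1 and the other controls. Of 4 named heat shock proteins, 3 were lower than UAS-3L G5 (against 10.0% of all probe sets), with a median log2 difference of -1.25, and 4 were lower than UAS-3L G1 (against 8.77%). The third, Hsp110, differed by -0.32 and did not pass when any 1 of the 6 arrays was left out (adjusted p from 0.0562 to 0.217).

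GstE3 and GstE7 belong to the epsilon class of GST, whose genes lie side by side. GstE3 had signals of 7.66 on both arrays in Tub-3L G1, against 9.90 and 9.84 in UAS-3L G5 and 10.19 and 10.11 in UAS-3L G1. It was 4.63-fold lower than UAS-3L G5 (log2 difference -2.21, SE 0.11, adjusted p = 1.22e-07) and 5.62-fold lower than UAS-3L G1 (-2.49, adjusted p = 3.57e-08). GstE7 had signals of 7.95 and 7.59 in Tub-3L G1, against 9.91 on both arrays in UAS-3L G5 and 9.95 and 9.93 in UAS-3L G1. It was 4.40-fold lower than UAS-3L G5 (log2 difference -2.14, SE 0.11, adjusted p = 1.55e-07) and 4.50-fold lower than UAS-3L G1 (-2.17, adjusted p = 9.40e-08). In these genes the 4 groups without the driver lay close together, and both Tub-3L G1 arrays lay below all 8 of their arrays. GstE8 is the gene next to GstE7 in RefSeq and had signals of 4.53 and 5.24 in Tub-3L G1, against 6.37 and 6.15 in UAS-3L G5 and 6.77 and 6.93 in UAS-3L G1, with a spread between the Tub-3L G1 arrays. It was 2.59-fold lower than UAS-3L G5 (log2 difference -1.37, SE 0.23, adjusted p = 0.00145) and 3.90-fold lower than UAS-3L G1 (-1.96, adjusted p = 1.06e-04). GstD4, of the delta class, had signals of 5.06 and 4.38 in Tub-3L G1, against 6.39 and 6.64 in UAS-3L G5 and 6.13 and 6.16 in UAS-3L G1. It was 3.48-fold lower than UAS-3L G5 (log2 difference -1.80, SE 0.18, adjusted p = 3.05e-05) and 2.69-fold lower than UAS-3L G1 (-1.43, adjusted p = 1.86e-04), and its w1118 signals of 5.31 and 5.08 lay near those of Tub-3L G1.

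Of 19 named GST genes, 8 were lower than UAS-3L G5 (42.1%, against 10.0% of all probe sets) and 2 higher (10.5%, near the 9.03% of all probe sets), with a median of -0.52. Against UAS-3L G1, 10 were lower (52.6%, against 8.77% of all probe sets) and 1 higher (5.26%, against 11.5%). GstE1 (-0.65), GstE2 (-1.07) and GstE9 (-0.58) were the other epsilon members lower than UAS-3L G5, whereas GstE6, in the same cluster, was higher by 0.49. GstD9 was higher by 1.02, and without the first UAS-3L G5 array 1 member passed upward. Near-identical stretches within this family can add signal from 1 member to the probe set of another.

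The other 7 lower genes included a cuticle protein, a transporter and metabolic enzymes. Lcp65Ag2, a larval cuticle protein, fell furthest against UAS-3L G5 among the named genes. Lcp65Ag2 had signals of 4.02 and 4.15 in Tub-3L G1, against 7.98 and 7.93 in UAS-3L G5 and 7.23 and 7.35 in UAS-3L G1. It was 14.6-fold lower than UAS-3L G5 (log2 difference -3.87, SE 0.15, adjusted p = 2.92e-08) and 9.21-fold lower than UAS-3L G1 (-3.20, adjusted p = 6.62e-08). The Tub-3L G1 signals lay below the lower quartile of the array, and those of the 4 control groups between 7.23 and 8.58. It has near-identical neighbours, and it was the only listed cuticle gene with a named probe set. CG11350 had signals of 5.26 and 5.02 in Tub-3L G1, against 7.08 and 6.50 in UAS-3L G5 and 8.90 and 9.08 in UAS-3L G1. It was 3.13-fold lower than UAS-3L G5 (log2 difference -1.65, SE 0.17, adjusted p = 4.66e-05) and 14.4-fold lower than UAS-3L G1 (-3.85, adjusted p = 5.44e-08), and the controls differed by -2.20 themselves. In w1118 its signals were 11.90 and 12.02.

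Tret1-2, of the trehalose transporter family, had signals of 4.14 and 4.86 in Tub-3L G1, against 6.49 and 5.96 in UAS-3L G5 and 6.36 and 6.15 in UAS-3L G1. It was 3.30-fold lower than UAS-3L G5 (log2 difference -1.72, SE 0.29, adjusted p = 0.00164) and 3.37-fold lower than UAS-3L G1 (-1.75, adjusted p = 0.00146). Asparagine synthetase, AsnS, had signals of 8.25 and 8.04 in Tub-3L G1, against 9.78 and 9.64 in UAS-3L G5 and 9.34 and 9.03 in UAS-3L G1. It was 2.95-fold lower than UAS-3L G5 (log2 difference -1.56, SE 0.12, adjusted p = 6.13e-06) and 2.05-fold lower than UAS-3L G1 (-1.04, adjusted p = 1.32e-04), and the difference from UAS-3L G1 was under 2-fold without the second Tub-3L G1 array (-0.94) or the first UAS-3L G1 array (-0.88), and after quantile normalisation (-0.99).

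Pdk, the kinase that inactivates pyruvate dehydrogenase, had signals of 9.71 and 9.76 in Tub-3L G1, against 10.87 and 10.95 in UAS-3L G5 and 10.97 and 10.81 in UAS-3L G1. It was 2.25-fold lower than UAS-3L G5 and 2.22-fold lower than UAS-3L G1 (adjusted p = 9.56e-07 and 9.10e-07). CAHbeta, a carbonic anhydrase, was 2.38-fold lower than UAS-3L G5 and 3.28-fold lower than UAS-3L G1. Obp56e, an odorant-binding protein, had signals of 5.42 and 5.27 in Tub-3L G1, against 6.53 and 6.33 in UAS-3L G5 and 6.83 and 6.52 in UAS-3L G1. It was 2.12-fold lower than UAS-3L G5, with a log2 difference of -0.98 without the first array of that control, and 2.51-fold lower than UAS-3L G1.

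Of 43 named odorant-binding proteins, 6 were lower than UAS-3L G5 (near the 10.0% of all probe sets) and 0 higher, with a median of -0.16. Of the 6, 5 were also lower than UAS-3L G1 (11.6% of the 43, near the 8.77% of all probe sets). The number lower than UAS-3L G5 changed when single arrays were left out. Obp49a fell by 0.997 and Obp56a by 0.906 on the log2 scale against UAS-3L G5.

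**Figure D3:**
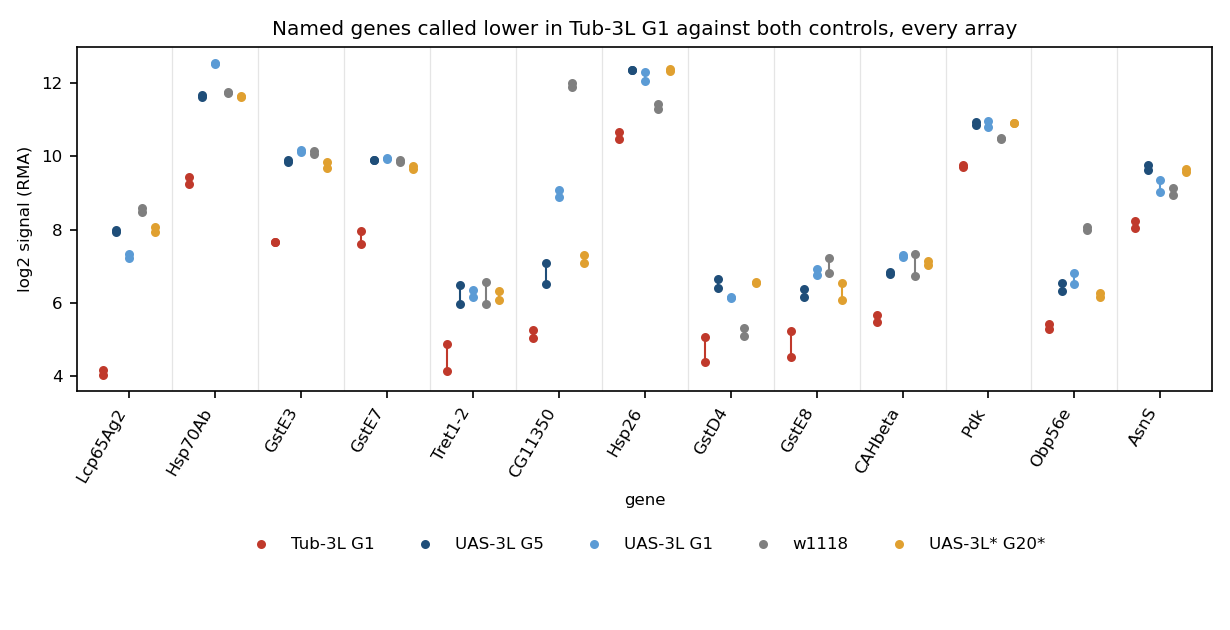
Log2 signal on every array for the 13 named genes called lower in Tub-3L G1 (red) than in both UAS-3L G5 (dark blue) and UAS-3L G1 (light blue), with w1118 (grey) and UAS-3L* G20* (yellow). Points are single arrays and lines join the 2 arrays of a group. In every gene both red points lie below all 4 blue points, and in CG11350 the control groups are spread over more than 5 units.

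Among glycolytic and muscle genes the members that passed against UAS-3L G5 differed from it by less than 2-fold. Of 10 named glycolytic enzymes, 4 were lower than UAS-3L G5 (40.0%, against 10.0% of all probe sets) and 0 higher, with a median of -0.26, and the same 4 were among 7 lower than UAS-3L G1 (70.0%, against 8.77%), where the median was -0.66. Pgi, which converts glucose 6-phosphate, had signals of 9.68 and 9.57 in Tub-3L G1, against 10.34 and 10.24 in UAS-3L G5 and 10.70 and 10.76 in UAS-3L G1. It was 1.59-fold lower than UAS-3L G5 and 2.15-fold lower than UAS-3L G1. Aldolase, Ald1, fell by 0.46 against UAS-3L G5, Pglym78, a phosphoglycerate mutase, by 0.75 and Eno, enolase, by 0.35. Without the first Tub-3L G1 array neither Pglym78 nor Eno passed (adjusted p = 0.0899 and 0.0938), and Pglym78 also did not pass without the first UAS-3L G5 array (0.0972), nor Eno without the second Tub-3L G1 (0.0580) or UAS-3L G5 (0.138) array. Without the first Tub-3L G1 array 2 of the 10 passed, and without any other single array 3 or 4.

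Of 8 named muscle genes, 4 were lower than UAS-3L G5 (against 10.0% of all probe sets) and 0 higher, with a median of -0.45. The same 4 were among 5 lower than UAS-3L G1 (62.5%, against 8.77% of all probe sets). Prm, paramyosin, a core protein of the thick filament, had signals of 8.35 and 8.61 in Tub-3L G1, against 9.40 on both arrays in UAS-3L G5 and 10.06 and 10.03 in UAS-3L G1. It was 1.89-fold lower than UAS-3L G5 and 2.96-fold lower than UAS-3L G1. Tm2 (tropomyosin), Mlc1 (a myosin light chain) and Act87E (an actin) fell by 0.81, 0.45 and 0.59 against UAS-3L G5. Without the first UAS-3L G5 array the median of the 8 was -0.26, while the same number of members passed. The summed signal of the 2 named muscle markers, Act87E and Mlc1, which are also members, was 11.55 to 11.62 in Tub-3L G1, 12.02 to 12.05 in UAS-3L G5 and 12.25 to 12.29 in UAS-3L G1. Mlc1 makes up nearly all of this sum, with a mean of 11.57 in Tub-3L G1 against 5.07 for Act87E. The part of muscle share in these values was not tested. In whole larvae, fewer cells of a type and less RNA per cell cannot be told apart.

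Of 41 named cytochrome P450 genes, which oxidise hormones and foreign compounds, 8 were higher (19.5%, against 9.03% of all probe sets) and 9 lower (against 10.0%) than UAS-3L G5, with a median of 0.0043. Without the first UAS-3L G5 array 8 were higher and 5 lower, without the first Tub-3L G1 array 7 and 5, without the second Tub-3L G1 array 5 and 7, and without the second UAS-3L G5 array 5 and 6. Against UAS-3L G1, 6 of the 41 cytochrome P450 genes were higher (14.6%, against 11.5% of all probe sets) and 8 lower (19.5%, against 8.77%). Higher than both controls were 3 of the 41, and lower than both were 4. Of 5 named genes of blood cells and melanization, 3 were higher than UAS-3L G5 (against 9.03% of all probe sets) and 0 lower, with a median of 0.42, and 1 was higher than UAS-3L G1. He, which encodes Hemese of the blood cell surface, had signals of 7.21 and 7.35 in Tub-3L G1, against 6.60 and 6.28 in UAS-3L G5 and 6.40 and 6.31 in UAS-3L G1, and differed by 0.84 and 0.92. The phagocytic receptor gene eater (0.64) and the prophenoloxidase gene PPO1 (0.42) passed against UAS-3L G5 only. Without the second Tub-3L G1 array He alone of the 5 passed, and without the first Tub-3L G1 or the second UAS-3L G5 array 2 passed. The summed signal of the 4 named blood cell markers was 9.99 to 10.01 in Tub-3L G1, 9.48 to 9.57 in UAS-3L G5 and 9.86 to 9.94 in UAS-3L G1. Their part in these differences was not tested.

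Of 12 named spermatogenesis genes, 3 were higher than UAS-3L G5 (25.0%, against 9.03% of all probe sets) and 1 lower (8.33%, against 10.0%). Mst84Dc, a sperm tail protein gene, differed by 1.15, betaTub85D, the testis beta-tubulin, by 0.55 and Mst84Da by 0.64. The gene sa, a testis-specific subunit of a transcription factor, differed by -0.56 and did not pass without the first array of Tub-3L G1 or of UAS-3L G5 (adjusted p = 0.102 and 0.0860). All 3 higher genes were also higher than UAS-3L G1 (0.59, 0.56 and 0.50). They were among 5 of the 12 higher than that control (41.7%, against 11.5% of all probe sets). The summed signal of the 5 named testis markers was 9.17 to 9.22 in Tub-3L G1, 8.80 to 8.81 in UAS-3L G5 and 8.56 to 8.82 in UAS-3L G1, where betaTub85D, a member of the list, is by far the brightest. Of the other markers Mst87F differed by 0.45 from UAS-3L G5, sa by -0.56, mia by -0.31 and aly, which was dim, by 0.02, and the part of male or testis share in these values was not tested.

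**Figure D4:**
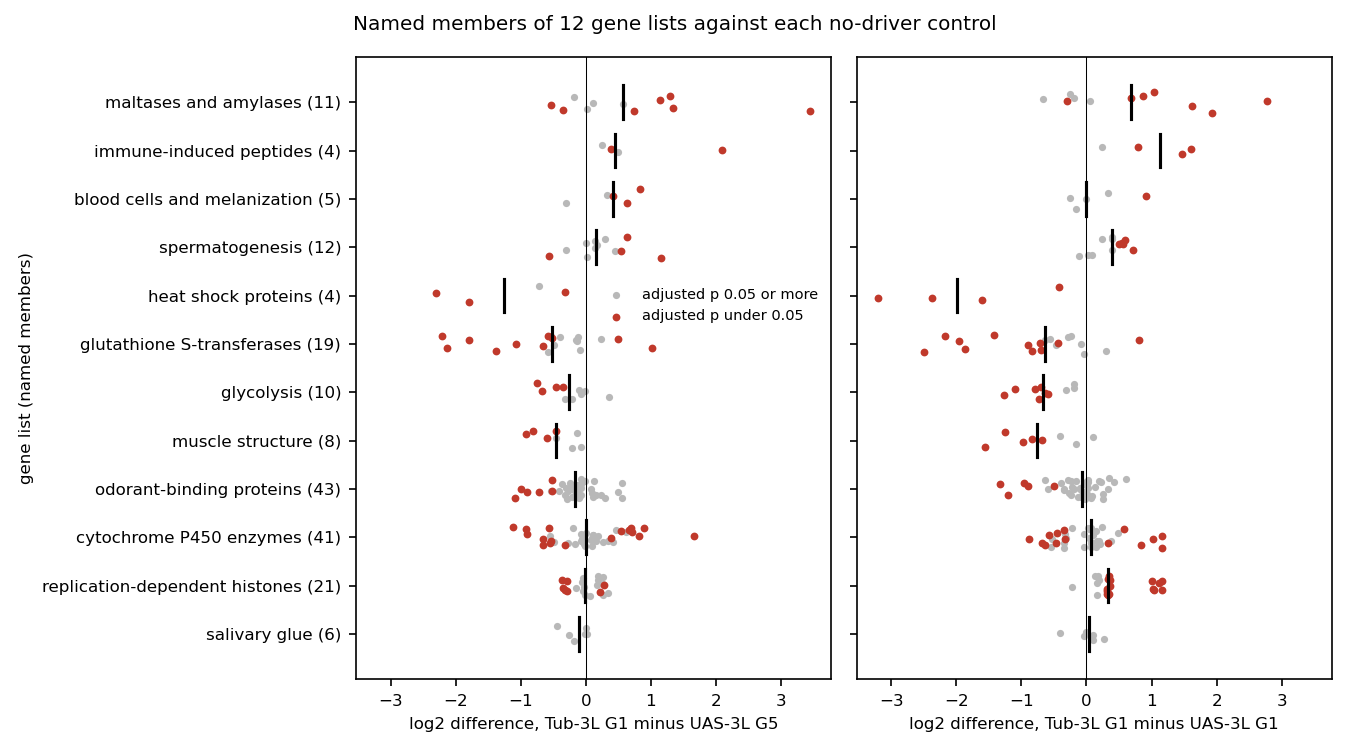
Log2 difference of the named members of 12 gene lists between Tub-3L G1 and UAS-3L G5 (left) and between Tub-3L G1 and UAS-3L G1 (right). Each point is a gene, red where its adjusted p is under 0.05, and black bars are list medians. Heat shock proteins, glutathione S-transferases, glycolytic enzymes and muscle genes have medians below zero on both sides, while the histones lie near zero on the left and higher on the right.

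Of the 523 calls against UAS-3L G5, 297 were not made against UAS-3L G1, 117 higher and 180 lower. Of these, 132 passed the test against UAS-3L G1 in the same direction at less than 2-fold, 124 had the same direction without passing, and 41 had the opposite direction, 5 of them past the test. In 103 of the 297 the 2 controls were themselves called different, against 1.72% of all probe sets. The 297 were chosen for a call against 1 control and not the other, so much of this follows from the choice. Conversely, 105 higher and 149 lower calls were made against UAS-3L G1 only.

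Cyp28a5, a cytochrome P450, passed the test in opposite directions against the 2 controls. Its signals were 7.88 and 7.89 in Tub-3L G1, against 9.04 and 8.96 in UAS-3L G5 and 7.23 and 7.38 in UAS-3L G1. Against UAS-3L G5 it was 2.17-fold lower (-1.12, adjusted p = 2.86e-06), and against UAS-3L G1 1.49-fold higher (0.58, adjusted p = 4.85e-04). Tub-3L G1 lay between the controls, which differed by 1.69. The scavenger receptor gene ninaD, which takes up carotenoids, passed in the reverse pattern, with 7.25 and 7.32 in Tub-3L G1, against 6.28 and 6.19 in UAS-3L G5 and 7.95 and 8.07 in UAS-3L G1. It was higher than UAS-3L G5 by 1.05 and lower than UAS-3L G1, with a log2 difference of -0.72 (adjusted p = 0.00116 and 0.0105). Ctr1B, a copper importer, differed by -0.47 from UAS-3L G5 and by 0.68 from UAS-3L G1, both past the test.

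NLaz, a lipocalin, had signals of 7.62 and 7.40 in Tub-3L G1, against 8.89 and 8.93 in UAS-3L G5 and 7.83 and 7.69 in UAS-3L G1. It was 2.64-fold lower than UAS-3L G5 (adjusted p = 1.23e-06) and differed from UAS-3L G1 by -0.25 (adjusted p = 0.0799). Both UAS-3L G5 arrays lay above all arrays of the other 2 groups. Proc-R, the receptor of the peptide proctolin, differed by -1.26 and -0.95, past the test against both and just under 2-fold against UAS-3L G1. CG5756, CG43060 and CG43182 were lower than UAS-3L G5 by 1.23, 1.44 and 1.51 and did not pass against UAS-3L G1. CG43060 did not pass without the first Tub-3L G1 array (adjusted p = 0.0606), nor CG43182 without either Tub-3L G1 array or the first UAS-3L G5 array (adjusted p from 0.0667 to 0.0989).

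CG43085 had signals of 8.96 and 9.07 in Tub-3L G1, against 7.42 on both arrays in UAS-3L G5 and 8.37 and 8.45 in UAS-3L G1. It was 3.01-fold higher than UAS-3L G5 and 1.52-fold higher than UAS-3L G1, while w1118 lay above all of them at 10.06 and 10.10. The DNA repair alkyltransferase gene agt differed by 1.20 and 0.83, and mRpL14, a mitochondrial ribosomal protein gene, by 1.20 and 0.54, all past the test. Pp1-Y2, a Y-linked phosphatase gene, differed by 1.06 from UAS-3L G5, did not pass against UAS-3L G1 (0.72), and lost the first test without the first Tub-3L G1 or the second UAS-3L G5 array (adjusted p = 0.0837 and 0.117).

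The replication-dependent histones, which package new DNA, differed in their counts between the controls. Of 21 named copies, 2 were higher (9.52%, against 9.03% of all probe sets) and 5 lower (23.8%, against 10.0%) than UAS-3L G5, with a median of -0.0092, and 15 were higher (71.4%, against 11.5%) and 0 lower than UAS-3L G1, with a median of 0.34. The 5 lower copies differed by -0.36 to -0.29, and without a single array of Tub-3L G1 or UAS-3L G5 between 0 and 3 copies passed downward and 0 or 1 upward. Copies of a histone gene are nearly identical and are not separate measurements. Among genes called against UAS-3L G1 only, GstD7 had signals of 4.49 and 4.64 in Tub-3L G1, against 5.03 and 5.15 in UAS-3L G5 and 6.38 and 6.47 in UAS-3L G1. It differed by -1.86 from UAS-3L G1 and by -0.53 from UAS-3L G5 (adjusted p = 2.40e-05 and 0.0610). Smvt, a vitamin transporter, differed by -1.45 and 0.21 in the same order.

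Among the shared calls without a name, 2 probe sets in each direction were taken by the smaller of their 2 differences. Probe set 18180103 had signals of 7.74 and 7.82 in Tub-3L G1, against 3.23 and 2.75 in UAS-3L G5 and 2.84 and 4.41 in UAS-3L G1. It was 27.7-fold higher than UAS-3L G5 (log2 difference 4.79, SE 0.43, adjusted p = 1.44e-05) and 17.8-fold higher than UAS-3L G1 (4.15, adjusted p = 4.23e-05). Of its 4 control signals 3 lay below the lower quartile of the arrays (4.34 to 4.43) and the other near it, so these folds are against signals at the low end of the scale. Probe set 18210490 had 10.23 and 10.33 in Tub-3L G1, against 5.71 and 5.69 in UAS-3L G5 and 6.39 and 7.23 in UAS-3L G1, and was 23.9-fold higher than UAS-3L G5 and 11.1-fold higher than UAS-3L G1. On both, Tub-3L G1 lay far above every array of the 2 control groups. In later Tub-3L generations the means of 18180103 and 18210490 were 2.99 and 4.04 at G2, 5.65 and 10.86 at G4, and 2.70 and 3.73 at G5.

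Probe set 18134872 had signals of 6.001 and 6.36 in Tub-3L G1, against 9.70 and 9.68 in UAS-3L G5 and 9.97 and 10.03 in UAS-3L G1. It was 11.4-fold lower than UAS-3L G5 (log2 difference -3.51, SE 0.21, adjusted p = 5.07e-07) and 14.1-fold lower than UAS-3L G1 (-3.82, adjusted p = 2.01e-07), and the 4 control arrays lay close together. Probe set 18183291 had 3.53 and 2.82 in Tub-3L G1, against 6.65 and 6.23 in UAS-3L G5 and 7.69 and 7.76 in UAS-3L G1. It was 9.62-fold lower than UAS-3L G5 and 23.4-fold lower than UAS-3L G1, with controls that differed by -1.29. Which transcripts these probe sets detect was not analysed here.

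Whether the shared differences were the same in the fifth generation of expression was tested for the 30 named genes as the driver effect at G1 (Tub-3L G1 minus UAS-3L G1) less that at G5 (Tub-3L G5 minus UAS-3L G5). This difference was called for 24 of the 30, against 24.1% of all probe sets, but the 30 were chosen for their effect at G1, so the share is not read against that background. Hsp70Ab, GstE3, GstE7 and GstE8 were lower than their control at G1 and higher than their control at G5. The same held for Obp56e, CAHbeta, Hsp26 and AsnS. Higher at G1 and lower at G5 were Cht4 (log2 difference 1.89 and -1.02), Mal-A4 (1.92 and -1.01), alphaTub85E, Gr94a and Cyp4ac3. So were CG17362, CG43064, CG43133, CG43153 and CG43315. All of these G5 effects had an adjusted p under 0.05. Lcp65Ag2 was lower in both (log2 difference -3.20 at G1 and -2.91 at G5), and DptB (1.60 and 1.03) and CG43351 (2.06 and 2.25) were higher in both. The test of the difference was not passed for Lcp65Ag2 and CG43351 (adjusted p = 0.270 and 0.648), and for DptB the difference of 0.57 passed at under 2-fold (adjusted p = 0.00736).

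**Figure D5:**
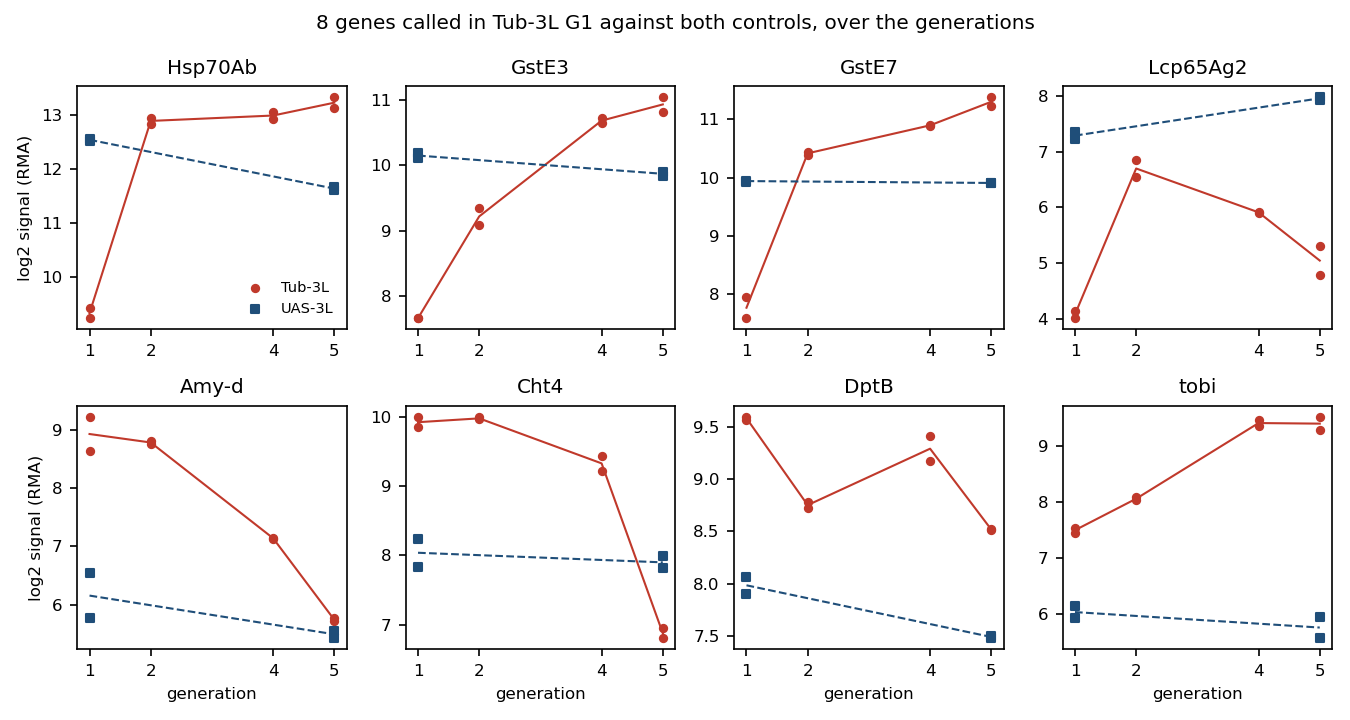
Log2 signal over the generations for 8 genes called in Tub-3L G1 against both controls. Red circles are arrays of Tub-3L G1, G2, G4 and G5 with a line through their means, and blue squares are arrays of UAS-3L G1 and G5 joined by a dashed line. Hsp70Ab, GstE3 and GstE7 lie below UAS-3L at G1 and above it at G5, and Cht4 lies above at G1 and below at G5. Lcp65Ag2 stays below and DptB and tobi stay above at both.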

How the data were processed

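Log2 signals were deposited. The authors obtained these log2 values by RMA at gene level with Affymetrix Expression Console 1.3 from Affymetrix Drosophila Gene ST arrays. Groups were compared in the Transcriptome Analysis Console by the authors. The signals were used as deposited. A second table of 9 columns of averages was not used, as its columns could not be tied to groups. The array's annotation gives 1 symbol to 2392 probe sets (2249 distinct symbols) and none to 13930. All symbols matched the RefSeq table of Release 6 plus ISO1 MT, used for names and neighbours only. The sources used here do not give the genome build of the array annotation.

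A mean per group was fitted to all 18 arrays with limma 3.58.1 (lmFit, eBayes) in R 4.3.3, which left 9 residual degrees of freedom and added 2.71 from the prior. Adjustment was by Benjamini-Hochberg over 16322 probe sets for each comparison, and p-values measure the spread between larval pools. A call needed an adjusted p under 0.05 and at least 2-fold. The members and the 45 gene lists, 5 of them without a named member, were chosen with earlier results of these data known, and members that did not belong (Cyp1, Mlc-c, LysRS and histone variants outside the replication-dependent clusters) were taken out after the values were seen. Genes were named by rule: up to 12 per direction called against both controls with arrays beyond all 4 control arrays, 5 per direction called against UAS-3L G5 only, 3 per direction against UAS-3L G1 only, and up to 4 members per list with the smallest p. The test of the G1 against the G5 driver effect and genes outside these ranks were chosen after their values were seen. Of several probe sets of a symbol, the brightest was taken. Alternatives covered the groups fitted, centring, quantile normalisation, a filter on dim probe sets, fold thresholds, the replicate block, an intensity trend, the methods' t-test and single arrays left out. The fits were tested on simulated data.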

Additional observations from a re-analysis of the deposited data

Results flagged for a closer look

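For 24 of the 30 named genes that differed from both controls, the effect of the driver at G1 differed from that at G5 by a test of the difference itself, at an adjusted p under 0.05 and at least 2-fold. The genes were chosen for their effect at G1, which is part of this difference, so the signs largely follow from the choice. The choice also favours large values and small p, so the count of 24 is a description only. The values are log2 driver effects at G1 minus those at G5. The genes lower at G1 had negative values, for Hsp70Ab (-4.79), GstE8 (-4.21), CG11350 (-3.90), GstE7 (-3.56), GstE3 (-3.55), Obp56e (-2.74), CAHbeta (-2.64), Hsp26 (-2.08), AsnS (-1.93) and Pdk (-1.26). The genes higher at G1 had positive values, for CG43133 (3.57), CG43153 (3.06), CG43315 (3.02), Mal-A4 (2.94), CG43064 (2.93), Cht4 (2.91), CG17362 (2.87), Amy-d (2.53), CG43175 (2.43), alphaTub85E (2.20), Gr94a (1.60), Cyp4ac3 (1.53) and Amy-p (1.38). Of the 24, tobi had the other sign (-2.18), as it was higher than its control at G1 and by more at G5. GstD4, lower at G1 and by more at G5, had a value of 0.82, under 2-fold (adjusted p = 0.0185). The UAS-3L G1 and UAS-3L G5 arrays enter these values as controls, and the causes were not tested.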

How the results depend on the processing

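The counts of probe sets higher and lower than UAS-3L G5, then of those higher and lower than both controls, were 212, 311, 95 and 131. They were 28, 25, 17 and 13 with the named probe sets only, 1474, 1637, 774 and 729 with no fold threshold, and 645, 861, 288 and 352 at 1.5-fold. The methods' t-test within each pair gave 0, 0, 0 and 0 after adjustment, where 3193 probe sets had an unadjusted p under 0.05 against UAS-3L G5, and 179, 270, 80 and 110 at the unadjusted p. limma fitted to each pair alone gave 180, 271, 74 and 106, so the adjusted calls rest on a spread pooled over probe sets. Leaving out single arrays gave 206 to 218, 304 to 331, 83 to 101 and 127 to 148, with 197 to 211 of the 226 shared calls kept. Centring the arrays on their medians gave 195, 323, 79 and 152. The replicate numbers did not pair the samples, since deviations of same-numbered arrays correlated at 0.039 for Tub-3L G1 and UAS-3L G5, and the fit with the replicate block gave 208, 309, 93 and 131. In that fit 2 of 4 heat shock proteins were lower. Of the 30 shared named genes, GstE8 and Tret1-2 did not pass in the pairs alone or at the unadjusted p of the t-test. With the mean of both UAS-3L controls in place of UAS-3L G5, chosen after seeing the data, Ctr1B turned to 0.11 from -0.47, and 151 probe sets were higher and 255 lower. Over 96 named genes and 20 alternatives, 1592 pairs kept direction and test, 321 lost the test and 1 turned. The tally covers only genes that had passed against UAS-3L G5, and does not check the 2-fold call or the difference from UAS-3L G1. Changing the fold threshold leaves the test as it was, so those pairs could not change. Leaving out a UAS-3L G1 array altered only the spread, so the tally is a description only.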

Other observations

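Of 11 named genes of metal handling, 4 were lower than UAS-3L G5 (36.4%, against 10.0% of all probe sets) and 0 higher, with a median of -0.13. MTF-1, the metal-responsive transcription factor, and the metallothionein genes MtnA and MtnD, which bind copper and zinc, fell by 0.45, 0.41 and 0.41 and lost the test without 1 or more single arrays. MtnD fell by 1.16 against UAS-3L G1. Of the 11, 4 were lower than UAS-3L G1 (36.4%, against 8.77% of all probe sets) and 1 was higher (9.09%, against 11.5%). The higher one, Ctr1B (0.68), was among those lower than UAS-3L G5 (-0.47), and 3 were lower than both controls. Of 14 named genes of mitochondrial respiration, 2 (COX5A and ATPsyngamma) were higher than UAS-3L G5 (14.3%, near the 9.03% of all probe sets) and 0 lower, with a median of 0.11. Each lost the test when single arrays were left out. Against UAS-3L G1 neither COX5A (0.03, adjusted p = 0.915) nor ATPsyngamma (-0.15, adjusted p = 0.305) passed, and the median of the 14 was -0.13. Of 15 named phototransduction genes, 1 was higher than UAS-3L G5 (6.67%, against 9.03% of all probe sets) and 1 lower (6.67%, against 10.0%). The higher one, ninaD, was lower than UAS-3L G1 (-0.72, adjusted p = 0.0105). The lower one, santa-maria, did not pass against UAS-3L G1 (0.02, adjusted p = 0.912). The only named Hox gene, Scr, differed by -0.51 from UAS-3L G5 (adjusted p = 0.0422) and by -0.10 from UAS-3L G1, and did not pass without the second Tub-3L G1 array or either UAS-3L G5 array. None of the 2 named Polycomb and Trithorax genes passed against either control. Of 4 named histone methylation enzymes, 1 was lower than UAS-3L G5 (25.0%, against 10.0% of all probe sets) and 0 higher, with a median of -0.22. The lower one, Hmt4-20, differed by -0.36 (adjusted p = 0.0495) and did not pass without the first Tub-3L G1 array or either UAS-3L G5 array. Against UAS-3L G1 none of the 4 passed, with -0.20 for Hmt4-20 (adjusted p = 0.276) and a median of 0.28.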
